A study of Mus musculus with 17 samples.

Results

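The genes described here encode the apparatus through which the antigen receptor of B cells signals. They are the receptor's signalling chains Cd79a and Cd79b, the inhibitory coreceptor Cd22, the kinases Blk, Lyn, Syk and Btk, and the adaptor proteins Blnk and Bank1. They were chosen by name, with earlier results of these data known. A probe set, the group of short probes that reads a transcript on the array, was taken where the array annotation gave it to 1 gene symbol only, and where a gene had several, that of the highest mean level on the 17 arrays stood for it. Of the 9 genes, 8 had such a probe set, out of 18193 genes in all, and Lyn was not analysed here. All 8 passed the filter on low values that left 12696 genes for the tests.

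Whole blood was taken from female C57BL/6JJcl mice, an inbred laboratory strain, aged 8 weeks, 24 h after exposure of the whole body to X-rays. The 5 control mice received 0 Gy, and 4 mice each received 0.5, 1.0 or 3.0 Gy, with no altered gene and no other agent named in the labels. Each mouse gave 1 Affymetrix array, and the deposited values are log2 levels, on which a difference of 1 unit is a factor of 2. In whole blood a smaller number of B cells and a smaller amount of a transcript in each B cell cannot be told apart, and this holds for every difference below.

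The B cell receptor is a membrane immunoglobulin that binds antigen but cannot signal alone. When antigen binds, Src-family kinases such as Blk and Lyn phosphorylate the tails of Cd79a and Cd79b, Syk docks there and phosphorylates the adaptor Blnk, and Btk on that scaffold activates phospholipase C and with it calcium release. Cd22 and Bank1 modulate the signal. Cd79a, Cd79b, Cd22, Blk, Blnk and Bank1 are known mainly from cells of the B lineage, whereas Syk and Btk are also used by myeloid cells and platelets. B cells are among the blood cells most sensitive to ionizing radiation.

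The array medians lay between 3.47 and 3.57, and all-probe-set correlations had a median of 0.987 within groups and 0.971 between groups. As a check of the tissue, the mean levels of the marker lists for red cells, platelets and B cells in controls were 9.03 ± 0.35, 8.77 ± 0.23 and 7.77 ± 0.31, all well above the array medians (SD, n = 5). The mean level of the control probe sets for 18S ribosomal RNA did not follow the dose. Controls had 10.5 ± 0.49, and the doses of 0.5, 1.0 and 3.0 Gy had 12.7 ± 0.77, 13.3 ± 0.28 and 10.7 ± 0.14 (SD, n = 5, 4, 4 and 4).

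The main comparison asked how the genes stood at 3.0 Gy. At this dose 7 of the 8 were lower than in controls, and 6 of them, the receptor chains Cd79a and Cd79b, Cd22, the kinase Blk and the adaptors Blnk and Bank1, fell by more than 2 log2 units. Btk fell by 0.40 units and Syk did not pass the test. Among all 12696 genes 29.2% were called lower at this dose in limma, a linear model fitted across all genes, at a Benjamini-Hochberg adjusted p under 0.05, and 1.54% were called lower by over 2 log2 units. The median change of the 8 genes was -2.77, against 0.04 over all genes tested. Ordered by the size of the fall, Bank1 stood at position 4, Cd79b at 10, Cd22 at 20, Blnk at 27, Cd79a at 51 and Blk at 122, while Btk stood at 3491 and Syk at 4555.

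Promoters were read for the short motifs named below where a sequence was at hand. Whether any motif bears on the falls was not tested. RefSeq (build GRCm38.p6) gave windows from 250 bases before to 50 bases after the start site for Cd79a, Cd22, Blnk, Bank1, Btk and Syk, 7 windows in all, and those of Cd79b, Blk and Lyn were not used here. The windows of Cd79a (chr7:24897247-24897546, plus strand), Cd22 (chr7:30878979-30879278, minus strand) and Blnk (chr19:40994172-40994471, minus strand) are printed, each 5′ to 3′ on the gene's own strand, since each holds a motif, shown in capitals.
Cd79a: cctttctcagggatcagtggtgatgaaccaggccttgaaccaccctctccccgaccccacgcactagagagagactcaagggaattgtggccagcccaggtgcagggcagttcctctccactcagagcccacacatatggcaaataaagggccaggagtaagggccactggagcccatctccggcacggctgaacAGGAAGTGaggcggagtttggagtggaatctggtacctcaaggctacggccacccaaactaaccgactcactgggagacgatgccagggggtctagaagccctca
Cd22: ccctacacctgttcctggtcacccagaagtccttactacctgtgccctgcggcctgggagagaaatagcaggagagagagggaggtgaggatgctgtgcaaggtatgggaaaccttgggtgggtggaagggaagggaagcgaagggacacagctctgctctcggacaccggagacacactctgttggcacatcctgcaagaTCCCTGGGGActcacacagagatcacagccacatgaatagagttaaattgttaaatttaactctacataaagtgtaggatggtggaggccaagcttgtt
Blnk: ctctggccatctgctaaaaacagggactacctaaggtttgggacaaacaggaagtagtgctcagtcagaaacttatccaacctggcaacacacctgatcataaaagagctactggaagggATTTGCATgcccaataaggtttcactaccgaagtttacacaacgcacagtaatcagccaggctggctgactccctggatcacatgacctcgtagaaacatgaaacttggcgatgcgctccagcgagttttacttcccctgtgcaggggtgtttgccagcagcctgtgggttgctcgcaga
In Cd79a the capitals mark the ETS core AGGAAGTG, which begins at position -55 from the start site. In Cd22 they mark a match to TCCC, any 2 bases and GGGA, a form of the motif bound by the B lineage factor EBF1, at position -49. In Blnk they mark the octamer ATGCAAAT, known from immunoglobulin promoters, read on the opposite strand at position -130. Searched on both strands, these letters occurred in 4.073%, 0.9041% and 1.735% of 32851 promoter windows of the same length. None of the 3 motifs was found in the windows of Bank1, Btk or Syk. A match is a description of the letters and not of binding.

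The receptor chains came first in the chain of signalling. Cd79a (probe set 1418830_at) stood at 8.28, 7.42, 7.75, 8.22 and 7.66 in the controls, at 6.86, 7.53, 6.69 and 7.24 at 0.5 Gy, at 6.92, 7.20, 6.96 and 6.90 at 1.0 Gy and at 5.05, 6.18, 4.96 and 5.04 at 3.0 Gy. Every 1.0 Gy and 3.0 Gy array lay below every control, and at 0.5 Gy the array of replicate 2 overlapped the control range. At 3.0 Gy the mean was 5.31 ± 0.58, against 7.87 ± 0.37 in controls (SD, n = 4 and 5), a log2 change of -2.56 ± 0.23 (SE; limma adjusted p = 9.39e-08), or 5.89-fold lower.
Cd79a was also called lower at the smaller doses, with changes of -0.79 ± 0.23 at 0.5 Gy (SE; limma adjusted p = 0.0376) and -0.87 ± 0.23 at 1.0 Gy (SE; limma adjusted p = 0.0132). The 0.5 Gy call was lost when single arrays were left out. The limma adjusted p was 0.098, 0.0557 and 0.107 without control replicate 1, 3 or 4, and 0.126, 0.152 and 0.0602 without 0.5 Gy replicate 1, 3 or 4. Without control replicates 1 and 4 together the changes were -0.53 at 0.5 Gy (limma adjusted p = 0.289) and -0.62 at 1.0 Gy (limma adjusted p = 0.12).

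Cd79b (probe set 1417640_at), the partner of Cd79a, stood at 9.87, 8.99, 9.18, 9.72 and 9.27 in the controls, at 8.15, 9.25, 8.25 and 8.79 at 0.5 Gy, at 8.79, 9.38, 8.50 and 8.74 at 1.0 Gy and at 5.16, 7.53, 5.56 and 4.90 at 3.0 Gy. The 3.0 Gy arrays were all below every other array of the study, with replicate 2 the highest of them, and the smaller doses each had 3 arrays below the lowest control. The mean at 3.0 Gy was 5.79 ± 1.19, against 9.40 ± 0.37 in controls (SD, n = 4 and 5). The change was -3.61 ± 0.39 (SE; limma adjusted p = 4.79e-07), or 12.3-fold lower. At 0.5 Gy the estimate was -0.80 (95% interval -1.61 to 0.02; limma adjusted p = 0.24) and at 1.0 Gy it was -0.55 (-1.36 to 0.26; limma adjusted p = 0.381). Without 3.0 Gy replicate 2, whose wide deviation enters the shared spread, the 0.5 Gy value passed the threshold (limma adjusted p = 0.0322).

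**Figure D1:**
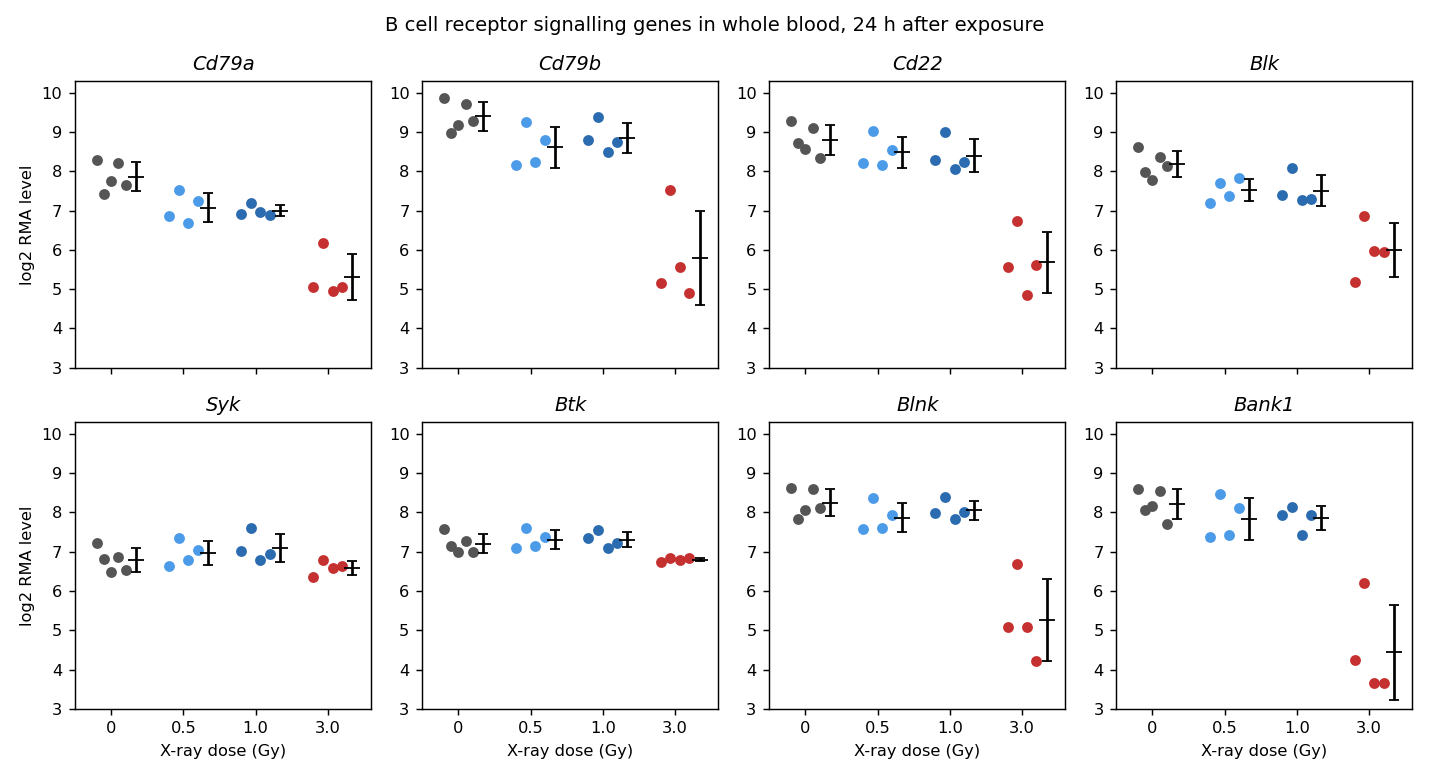
Log2 RMA level (y axis) of the 8 genes on each array, by X-ray dose in Gy (x axis); points are arrays, horizontal ticks with bars are group means with SD. The 4 arrays at 3.0 Gy lie apart from the 5 controls in every panel except that of Syk, and Bank1 falls to levels between 3.66 and 6.21 there.

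Cd22 (probe set 1419768_at), a sialic-acid-binding receptor that recruits phosphatases and dampens the signal, stood at 9.27, 8.71, 8.57, 9.10 and 8.34 in the controls, at 8.21, 9.02, 8.15 and 8.55 at 0.5 Gy, at 8.30, 9.01, 8.05 and 8.25 at 1.0 Gy and at 5.56, 6.73, 4.84 and 5.61 at 3.0 Gy. The 3.0 Gy arrays were all below the other 13 arrays, and the smaller doses overlapped the controls. The mean at 3.0 Gy was 5.69 ± 0.78, against 8.80 ± 0.38 in controls (SD, n = 4 and 5), a change of -3.11 ± 0.30 (SE; limma adjusted p = 1.28e-07), or 8.65-fold lower. The other probe set of Cd22 (1419769_at) gave -2.69 ± 0.23 (SE), with means of 3.37 ± 0.48 at 3.0 Gy and 6.06 ± 0.28 in controls (limma adjusted p = 5.21e-08 over 24366 probe sets). Its 3.0 Gy mean lay below the array medians of that group, 3.54 to 3.57, where RMA compresses differences, so this change is uncertain in size. Cd22 was not called at 0.5 Gy (-0.32, limma adjusted p = 0.611) or at 1.0 Gy (-0.40, limma adjusted p = 0.412).

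The kinases did not move alike. Blk (probe set 1422775_at), a Src-family kinase of the B lineage, stood at 8.63, 7.99, 7.78, 8.36 and 8.13 in the controls, at 7.20, 7.71, 7.38 and 7.82 at 0.5 Gy, at 7.41, 8.09, 7.27 and 7.29 at 1.0 Gy and at 5.19, 6.86, 5.98 and 5.93 at 3.0 Gy. At 3.0 Gy all arrays lay below all controls, and at each smaller dose 3 of 4 did. The mean at 3.0 Gy was 5.99 ± 0.68, against 8.18 ± 0.33 in controls (SD, n = 4 and 5), a change of -2.19 ± 0.26 (SE; limma adjusted p = 1.38e-06), or 4.56-fold lower.
For Blk the estimates at the smaller doses were -0.65 (limma adjusted p = 0.13) and -0.67 (limma adjusted p = 0.0867), neither of them called. The 1.0 Gy value passed the threshold without 1.0 Gy replicate 2 (-0.86, limma adjusted p = 0.0344) and, with its size unchanged, without 3.0 Gy replicate 1 (limma adjusted p = 0.0468) or replicate 2 (limma adjusted p = 0.0315).

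Syk (probe set 1418262_at), the kinase that docks on the phosphorylated receptor chains, stood at 7.23, 6.81, 6.48, 6.87 and 6.53 in the controls, at 6.64, 7.35, 6.80 and 7.04 at 0.5 Gy, at 7.02, 7.60, 6.78 and 6.94 at 1.0 Gy and at 6.36, 6.78, 6.60 and 6.64 at 3.0 Gy. All groups overlapped the control range. The mean at 3.0 Gy was 6.59 ± 0.18, against 6.79 ± 0.30 in controls (SD, n = 4 and 5), a difference of -0.19 with a 95% interval from -0.57 to 0.19 (limma adjusted p = 0.387). This interval does not reach the size of the falls of Cd79a, Cd79b, Cd22, Blk, Blnk and Bank1. Of the other 3 probe sets of Syk, none was called at 3.0 Gy, and their changes were -0.24, 0.13 and -0.19 (limma adjusted p = 0.357, 0.633 and 0.211 over 24366 probe sets).

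Btk (probe set 1422755_at), the Tec-family kinase that activates phospholipase C, stood at 7.58, 7.14, 7.0013, 7.26 and 7.0002 in the controls, at 7.08, 7.61, 7.14 and 7.37 at 0.5 Gy, at 7.35, 7.56, 7.10 and 7.22 at 1.0 Gy and at 6.75, 6.84, 6.78 and 6.83 at 3.0 Gy. The 3.0 Gy arrays lay close together and all below the other 13 arrays. The mean there was 6.80 ± 0.04, against 7.20 ± 0.24 in controls (SD, n = 4 and 5), a change of -0.40 ± 0.14 (SE; limma adjusted p = 0.0205), or 1.32-fold lower. This call was lost without control replicate 1 (-0.30, limma adjusted p = 0.0632) and when the arrays were set to a common median (-0.26, limma adjusted p = 0.081) or quantile normalized once more (-0.21, limma adjusted p = 0.0886).

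The adaptors followed the receptor chains. Blnk (probe set 1451780_at), the scaffold that Syk phosphorylates, stood at 8.63, 7.84, 8.07, 8.59 and 8.11 in the controls, at 7.57, 8.37, 7.60 and 7.93 at 0.5 Gy, at 7.99, 8.38, 7.82 and 8.01 at 1.0 Gy and at 5.07, 6.69, 5.07 and 4.22 at 3.0 Gy. Bank1 (probe set 1456328_at), a scaffold with ankyrin repeats that binds Lyn, stood at 8.61, 8.05, 8.16, 8.55 and 7.70 in the controls, at 7.37, 8.47, 7.43 and 8.11 at 0.5 Gy, at 7.93, 8.14, 7.43 and 7.95 at 1.0 Gy and at 4.23, 6.21, 3.66 and 3.66 at 3.0 Gy. For both genes all 3.0 Gy arrays were below the other 13 arrays, with replicate 2 the highest of the group, and the smaller doses overlapped the controls.
The mean of Blnk at 3.0 Gy was 5.26 ± 1.03, against 8.25 ± 0.35 in controls (SD, n = 4 and 5), a change of -2.98 ± 0.33 (SE; limma adjusted p = 6.39e-07), or 7.92-fold lower. Bank1 had 4.44 ± 1.21 at 3.0 Gy and 8.21 ± 0.37 in controls (SD, n = 4 and 5), a change of -3.77 ± 0.39 (SE; limma adjusted p = 3.09e-07). On 3.0 Gy replicates 3 and 4 Bank1 had the same deposited value, close to the array medians of 3.54 to 3.57, so it cannot be shown to lie above background there, and neither the fold nor its position among the falls is exact. At 0.5 and 1.0 Gy the estimates were -0.38 and -0.20 for Blnk and -0.37 and -0.35 for Bank1, with limma adjusted p between 0.575 and 0.749.

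Set side by side, the smaller doses gave smaller falls than 3.0 Gy for 6 genes. Syk (0.17 and 0.30) and Btk (0.10 and 0.11) had estimates above 0 at 0.5 and 1.0 Gy, none of them called. At 0.5 Gy 1 of the 8 genes, Cd79a, was called lower and 0 higher, where 5% of all genes tested were called lower and 5.24% higher. At 1.0 Gy it was again 1 of 8, the same gene, where 8.49% of all genes were called lower and 8.8% higher. The median change of the 8 genes was -0.37 at each of these doses, against -0.02 and -0.04 over all genes tested. At 3.0 Gy 7 of 8 genes had every array below every control, where 22.9% of all genes did. These 3 comparisons share the control arrays. The estimates at the smaller doses depended on the 18S level, which did not overlap between these doses and control. With it as a covariate Cd79a was -1.59 at 0.5 Gy and -1.90 at 1.0 Gy (limma adjusted p = 0.059 and 0.061), Cd79b -2.01 and -2.09, Blk -1.25 and -1.43, Blnk -1.36 and -1.44, Bank1 -1.29 and -1.52 and Cd22 -0.82 and -1.04, with none called and SEs between 0.46 and 0.99. In this fit 4.39% of all genes were called at 0.5 Gy and 4.77% at 1.0 Gy. The effects of these doses and of what the 18S level stands for cannot be told apart. The plot of changes with their intervals shows the gap between 1.0 and 3.0 Gy for 6 genes and its small size for Syk and Btk.

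**Figure D2:**
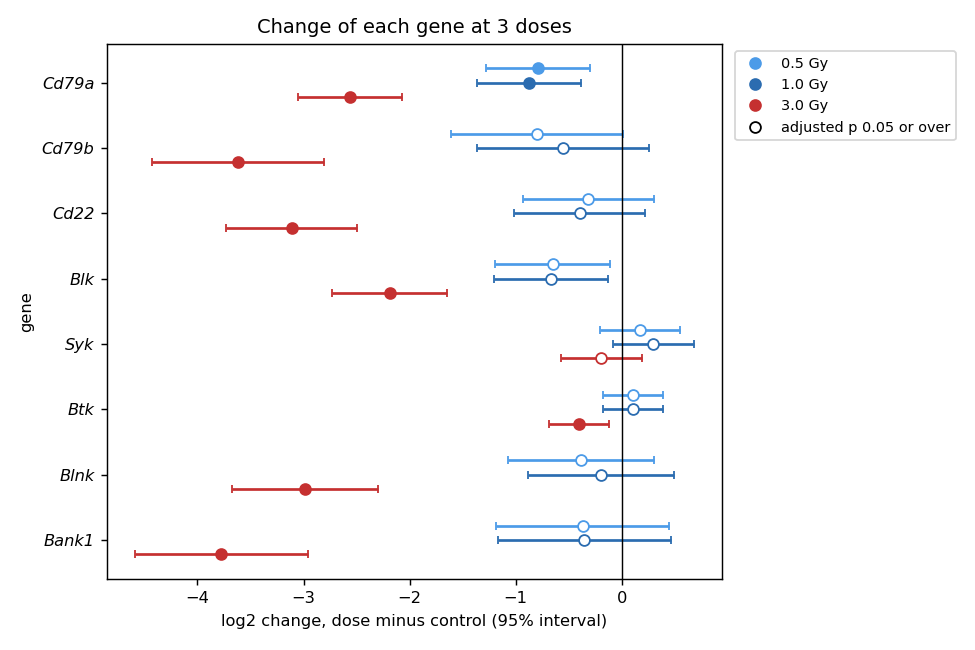
Log2 change of each of the 8 genes against control (x axis, with 95% interval), by gene (y axis) and dose; filled points have a limma adjusted p under 0.05. The 3.0 Gy estimates of 6 genes lie between -2.19 and -3.77, while those at 0.5 and 1.0 Gy all lie between -0.87 and 0.30.

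The doses were also compared with each other. Between 1.0 and 0.5 Gy limma called 0 of the 8 genes, 0 had an unadjusted p under 0.05, and 0.0158% of all genes were called in either direction. The estimates lay between -0.09 for Cd79a and 0.25 for Cd79b, and the interval for Cd79b, -0.61 to 1.10, shows how wide a difference these arrays leave room for. At 3.0 Gy 7 of 8 genes were lower than at 0.5 Gy, where 20.9% of all genes were called lower, and 8 of 8 were lower than at 1.0 Gy, where 22.7% were. These comparisons share the 3.0 Gy arrays. Against 1.0 Gy, Bank1 changed by -3.42, Cd79b by -3.06, Blnk by -2.79, Cd22 by -2.72, Cd79a by -1.69 and Blk by -1.52 (limma adjusted p between 8.69e-06 and 0.000385).
Btk changed by -0.51 against 1.0 Gy (limma adjusted p = 0.0101), a call lost with repeated quantile normalization (-0.25, limma adjusted p = 0.067), under which 6 of 8 genes were called, and by -0.50 against 0.5 Gy (limma adjusted p = 0.0109). Without 0.5 Gy replicate 2 the change against 0.5 Gy was -0.40 (limma adjusted p = 0.0515). Syk changed by -0.49 against 1.0 Gy at the edge of the threshold (limma adjusted p = 0.0483), with 3 of 4 arrays at 3.0 Gy below the lowest at 1.0 Gy. The Syk call was lost without any single array at 1.0 Gy except replicate 3, without 3.0 Gy replicate 1, 3 or 4, without control replicate 2 or 4 and without 0.5 Gy replicate 3 or 4, with limma adjusted p between 0.0545 and 0.186. It was also lost in 6 of 10 other settings. Among these were no filter on low values (limma adjusted p = 0.0526), a common array median (0.0835) and a fit of only the 2 groups compared (0.054). With the 18S level as a covariate limma called 0 of 8 genes at 3.0 against 0.5 Gy (5 with an unadjusted p under 0.05, and 0.748% of all genes called) and 0 of 8 at 3.0 against 1.0 Gy (2 with an unadjusted p under 0.05, and 0% of all genes called). The median SE was then 0.56 and 0.68, in place of 0.29. All 8 estimates were below 0 in both comparisons but were smaller in size. Against 1.0 Gy, Cd79a was -0.72 in place of -1.69, Cd79b -1.61 in place of -3.06, Blk -0.80 in place of -1.52, Blnk -1.61 in place of -2.79, Cd22 -2.11 in place of -2.72 and Bank1 -2.32 in place of -3.42. Against control the same covariate left 7 of 8 called at 3.0 Gy, where 49.4% of all genes were called. At 0.5 and at 1.0 Gy it left 0, with 3 at an unadjusted p under 0.05 at each of these doses. Of all genes 4.39% were called at 0.5 Gy and 4.77% at 1.0 Gy.

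The arrays of a group did not scatter gene by gene. At 3.0 Gy replicate 2 lay above its group mean for all 8 genes, by 0.99 log2 units on average. All 8 genes were likewise above their group mean in control replicates 1 and 4, 0.5 Gy replicates 2 and 4 and 1.0 Gy replicate 2, by averages of 0.43, 0.25, 0.46, 0.15 and 0.41. The mean level of 9 other B cell genes, described below, was highest in the same array of each group, at 5.19 in 3.0 Gy replicate 2 against 3.92, 4.24 and 4.44 in the others of that group.
Without 3.0 Gy replicate 2 the same 7 genes were called at 3.0 Gy, and the falls were deeper. The changes were then -2.85 for Cd79a, -4.20 for Cd79b, -3.46 for Cd22, -2.48 for Blk, -3.46 for Blnk and -4.37 for Bank1, and -0.41 for Btk (limma adjusted p = 0.0307). Control replicates 1 and 4 had array medians of 3.47 and 3.48, where the other controls had 3.53 to 3.54. Without both of them 6 genes were called at 3.0 Gy, with Btk at -0.25 (limma adjusted p = 0.169).

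**Figure D3:**
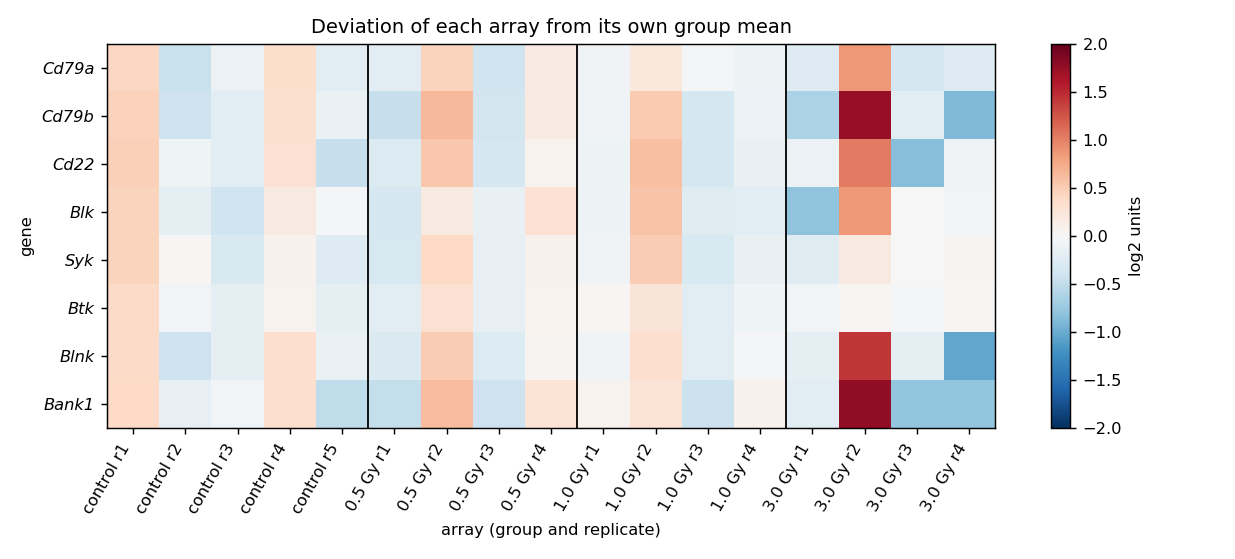
Deviation of each array from the mean of its own group in log2 units (colour), for the 8 genes (rows) on the 17 arrays (columns, r for replicate). The column of 3.0 Gy replicate 2 is above its group mean in all 8 rows, with the largest deviations in Cd79b, Blnk and Bank1.

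As a description, Pearson's r between genes over the 17 arrays was computed both as it stands, where the arrays share the dose groups, and after taking out the group means. Among the 15 pairs of Cd79a, Cd79b, Cd22, Blk, Blnk and Bank1 the median r was 0.963 (range 0.922 to 0.991), and 0.875 within groups. Syk and Btk correlated with each other at 0.900, and at 0.948 within groups. Over the 12 pairs between these 2 kinases and the 6 genes the median was 0.654, and 0.619 within groups. All of these values come from the same 17 arrays, so they share each array's RNA and its normalization.
The genes outside the set whose levels followed Cd79a most closely over the 17 arrays were Tnfrsf13b, a receptor for the B cell survival factors BAFF and APRIL (r = 0.993), H2-Oa, an MHC class II chain of B cells (0.990), Dnajc9 (0.984), the immunoglobulin light-chain gene segment Iglv1 (0.981) and Kctd14 (0.980). Those closest to Syk were Gripap1 (0.908), Taf15 (0.906), Ap3d1 (0.897), Hcls1 (0.886) and Abcd3 (0.885).

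A further comparison asked whether the genes changed by the same amount as other B cell genes. From every gene on every array the mean level of 9 B cell genes was subtracted: Ms4a1, Pax5, Ebf1, Fcer2a, Cr2, Fcrla, Vpreb3, Cxcr5 and Tnfrsf13c, none of them in the set. That mean was 4.45 ± 0.54 at 3.0 Gy, against 6.65 ± 0.29 in controls (SD, n = 4 and 5), and the 9 genes changed by -3.44 to -0.14. Relative to it, 4 of the 8 genes were lower at 3.0 Gy, namely Bank1 (-1.57, limma adjusted p = 9.37e-07), Cd79b (-1.41, 5.05e-06), Cd22 (-0.90, 0.00129) and Blnk (-0.78, 0.00704), where 0.315% of all genes were called lower. Since the subtracted mean fell, only genes that fell more could be called lower, which keeps that share small. The Blnk call was lost without 3.0 Gy replicate 4 (-0.43, limma adjusted p = 0.145). The 4 calls hold for this choice of 9 genes, among which Pax5 (-0.14) and Cr2 (-1.03) changed least. At 3.0 Gy the means of Fcrla (3.24), Ebf1 (3.45) and Cr2 (3.64) lay below or near the array medians of 3.54 to 3.57. Their falls may be understated there, and with them the fall of the subtracted mean, so the size of these relative changes is uncertain. The wider list of 18 B cell markers below had a median change of -2.89, near those of Blnk (-2.98) and Cd22 (-3.11) against control. Cd79a (-0.35, limma adjusted p = 0.184) and Blk (0.02, limma adjusted p = 0.939) were not called. With the mean of all probe sets per gene Cd79a was called on this scale (-0.57, limma adjusted p = 0.0171).
Syk and Btk were higher on this relative scale, by 2.02 (limma adjusted p = 2.24e-10) and 1.81 (limma adjusted p = 6.37e-09). Since the mean that was subtracted fell, 96.9% of all genes were called higher here and the median of all genes was 2.25, and Syk and Btk lay below that median. Bank1 and Cd79b, with changes of -3.77 and -3.61, lay below each of the 9 B cell genes, while the other 6 lay within their range. In the wider list of B cell markers below, Fcmr (-3.64) and Pou2af1 (-3.63) changed about as much as Cd79b. At 0.5 Gy limma called 0 of 8 genes on this scale, with 0 at an unadjusted p under 0.05, where 4.68% of all genes were called in either direction. At 1.0 Gy limma called 0 of 8, with 2 at an unadjusted p under 0.05, where 7.73% of all genes were called. Cd79a was called at 1.0 Gy without 3.0 Gy replicate 2, at the same value of -0.61 (limma adjusted p = 0.0467).

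The other genes of the pathway were read from 4 lists of coreceptors, inhibitors, relay proteins and downstream proteins. Of 38 genes listed 34 were tested, and at 3.0 Gy 19 fell and 5 rose, with a median change of -0.47, against 29.2% and 20% of all genes. At 0.5 Gy 1 was lower and 4 higher, where 5% and 5.24% of all genes were, and at 1.0 Gy 2 were lower and 7 higher, where 8.49% and 8.8% of all genes were. Inhibitors fell in 7 of 9 cases at 3.0 Gy and rose in 0. Cd72, an inhibitory coreceptor of B cells, had 4.00 ± 0.54 at 3.0 Gy and 6.90 ± 0.30 in controls (SD, n = 4 and 5), a change of -2.90 (limma adjusted p = 2.23e-08). The ubiquitin ligase Cblb changed by -0.99, the sialic-acid receptor Siglecg by -1.11, the kinase Csk by -0.76, the inhibitory Fc receptor Fcgr2b by -0.51, the phosphatase Ptpn6 by -0.44 and the adaptor Dok3 by -0.38. Inpp5d, the phosphatase SHIP-1, was not called at 3.0 Gy (0.30, limma adjusted p = 0.165) but was higher at 0.5 Gy (0.64, limma adjusted p = 0.0263) and at 1.0 Gy (0.75, limma adjusted p = 0.00553).

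Of 16 relay proteins 8 fell and 2 rose at 3.0 Gy. The adaptor Grap had 2.75 ± 0.48 at 3.0 Gy and 5.10 ± 0.41 in controls (SD, n = 4 and 5), a change of -2.35 (limma adjusted p = 6.01e-08) whose size is uncertain, since the 3.0 Gy level lay below the array medians. The adaptor Lat2 changed by -1.05 (limma adjusted p = 1.96e-06). Plcg2, the phospholipase that Btk activates, changed by -0.89 (limma adjusted p = 0.003). In the other direction, Dapp1, an adaptor that binds phosphoinositides, had 6.93 ± 0.40 at 3.0 Gy and 5.57 ± 0.13 in controls (SD, n = 4 and 5), a change of 1.36 (limma adjusted p = 3.51e-07), and it was also higher at 0.5 Gy (0.76) and 1.0 Gy (1.13). The Src-family kinase Fyn was higher at all 3 doses, by 0.59, 0.67 and 0.61. Of 7 downstream proteins 3 fell, the kinases Map4k1 (-2.11) and Prkcb (-1.82) and the protease Malt1 (-0.996), and 2 rose, Bcl10 (0.41) and the transcription factor Nfatc1 (0.37).
The 2 coreceptors tested moved in opposite directions. Cd81, a tetraspanin that many cell types carry, had 10.1 ± 0.41 at 3.0 Gy and 8.38 ± 0.20 in controls (SD, n = 4 and 5), a change of 1.74 (limma adjusted p = 5.88e-08), and it was higher at 0.5 Gy (0.92) and 1.0 Gy (1.36) too. Cr2, the complement receptor of B cells, changed by -1.03 (limma adjusted p = 0.000147). Its 3.0 Gy mean of 3.64 lay close to the array medians of 3.54 to 3.57, so the size of this change is uncertain.

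**Figure D4:**
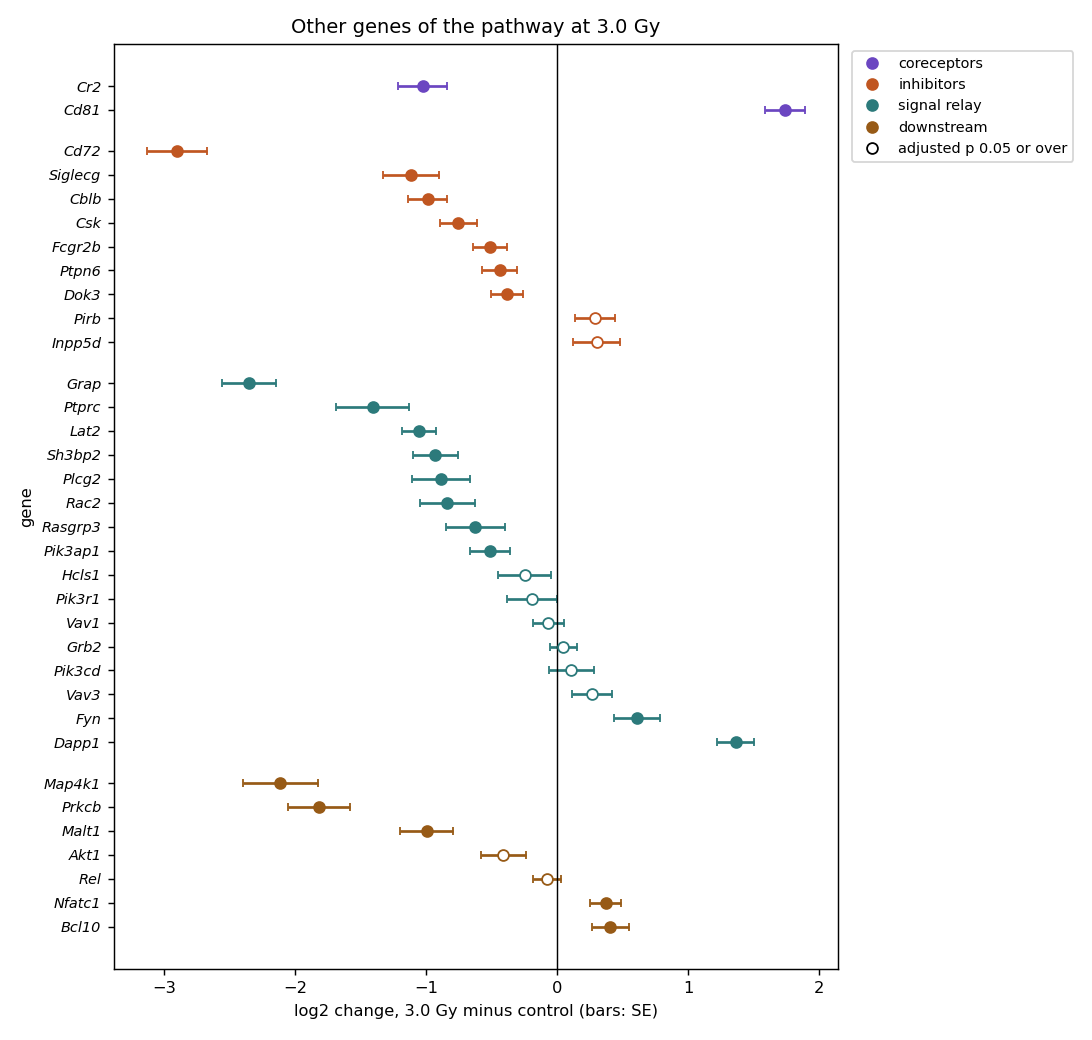
Log2 change at 3.0 Gy against control (x axis, bars are SE) of 34 other genes of the pathway (y axis), coloured by role; filled points have a limma adjusted p under 0.05. Of these, 19 lie below 0 and 5 above 0 as called genes, with Cd72 at -2.90 and Cd81 at 1.74 at the ends.

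Markers of several blood cells moved at 3.0 Gy, where 29.2% of all genes tested were called lower and 20% higher. Of 18 B cell markers 17 fell at 3.0 Gy and 0 rose, with a median change of -2.89, and limma called 0 of them at 0.5 Gy and at 1.0 Gy (2 with an unadjusted p under 0.05 at each). The mean level of this list ranged from 4.80 to 6.19 at 3.0 Gy and from 7.51 to 8.22 in controls. The IgM receptor Fcmr changed by -3.64 and the IgE receptor Fcer2a by -2.87, and the transcription factor Pax5 alone was not called (-0.14, limma adjusted p = 0.393). Of 12 T cell markers 9 fell, with a median of -1.09, and the list's mean level ranged from 5.83 to 6.01 at 3.0 Gy and from 6.76 to 7.45 in controls. The antigen-receptor chains Cd3g and Cd3d changed by -2.27 and -2.26 and the coreceptor chain Cd8b1 by -3.36. Of these 12 markers limma called 2 lower at 0.5 Gy and 3 at 1.0 Gy, and 0 higher. Among all genes 5% and 8.49% were called lower at these doses.
Platelet markers went the other way at every dose. All 14 tested were higher at 0.5, 1.0 and 3.0 Gy, with median changes of 1.22, 1.71 and 1.90, and the list's mean level ranged from 10.2 to 10.99 at 3.0 Gy and from 8.47 to 9.004 in controls. Of 10 mature neutrophil markers 9 were higher at 3.0 Gy, with a median of 1.06, and the list's mean level ranged from 7.86 to 8.92 at 3.0 Gy and from 6.98 to 7.61 in controls. Of these 10 markers limma called 0 at 0.5 Gy. At 1.0 Gy it called 1, S100a8, which was lower (-0.85, limma adjusted p = 0.0401). At 3.0 Gy Syk was not called and Btk changed by -0.40. The part of any of these cells, or of the 18S level, in the values of the 8 genes was not tested beyond the covariate and the relative scale given above.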

How the data were processed

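Gene expression in whole blood of 17 mice was measured on 1 Affymetrix array each. The table the authors deposited holds log2 values of 45101 probe sets, made with RMA and R 3.3.2 per the submitters' processing notes. RMA corrects background, aligns the arrays' distributions and summarises probes. Its settings: not given in the sources used here. It compresses dim probe sets, so their fold changes are understated, and a shift common to most genes would be partly removed. In the platform annotation 34945 probe sets had 1 gene symbol, 932 had several, 9160 had none and 64 were control probe sets. Per gene the probe set with the highest mean was used, and genes above the array's 50th percentile in at least 4 arrays were kept, 12696 of 18193.

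Tests on these values used limma 3.58.1 (lmFit, eBayes) in R 4.3.3, with 4 group means over all 17 arrays, two-sided, Benjamini-Hochberg adjusted over all genes tested, threshold 0.05. The procedure was tested on simulated data. The number of mice limits the precision. The labels number mice within each group. Over 24 pairs of same-numbered arrays, deviations from group means correlated between -0.45 and 0.49, so the numbers were not treated as pairs. No scan date or batch was used here. The 8 genes, the pathway and marker lists and the rule for naming genes (8 pathway genes of smallest p at 3.0 Gy, the 2 most changed the other way, 3 per marker list, 5 most like Cd79a and Syk) were chosen with earlier results of these data known. Pax5 and further pathway genes were named after their values were seen. Of the B cell list 2 genes, and of the 9 B cell genes subtracted 1, also stand in the pathway lists among those tested. Alternatives were another normalization, filter, probe set rule, covariate, block and leaving out arrays.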

Additional observations from a re-analysis of the deposited data

Results flagged for a closer look

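Each group of 4 or 5 arrays was screened for 1 array far from the others with Dixon's test at its 95% critical value, and 2 of 32 groups of the 8 genes had such an array, where chance flags about 1 in 20. Cd79a stood at 6.18 in 3.0 Gy replicate 2, with the next array of that group at 5.05. The same array had the highest level of its group for all 8 genes, and without it Cd79a changed by -2.85 in place of -2.56. Blk stood at 8.09 in 1.0 Gy replicate 2, with the next array at 7.41, and without that array its change at 1.0 Gy was -0.86 (limma adjusted p = 0.0344) in place of -0.67 (limma adjusted p = 0.0867). The cause of either value was not tested.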

How the results depend on the processing

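Over 28 settings 6 or 7 of the 8 genes were called lower at 3.0 Gy, and Cd79a, Cd79b, Cd22, Blk, Blnk and Bank1 were called in each of them. Of 1972 recomputed values of single genes 1863 kept their direction and side of the threshold, 47 lost and 11 gained a call, and 51 changed sign, of which 0 had been called in either fit. Leaving out each of the 17 arrays gave 0 to 2 genes called at 0.5 Gy, 1 to 2 at 1.0 Gy and, relative to the 9 B cell genes, 0 to 1 at 1.0 Gy. Without control replicates 1 and 4, an alternative chosen after seeing the data, the counts were 0 at 0.5 Gy and 0 at 1.0 Gy, and Blnk at 1.0 Gy was 0.044. A fit of only the 2 groups compared called 3 genes at 0.5 Gy, 2 at 1.0 Gy and, relative to the 9 B cell genes, 1 at 1.0 Gy. With the 18S level as a covariate 4.39% of all genes were called at 0.5 Gy and 4.77% at 1.0 Gy. The share was 0.748% for 3.0 against 0.5 Gy and 0% for 3.0 against 1.0 Gy. Of the 8 genes this covariate left 0 called in each of these comparisons. With it the standard errors were larger, the estimates against control at 0.5 and 1.0 Gy were larger for 6 genes, as Cd79a at 1.0 Gy with -1.90 in place of -0.87, and those between 3.0 Gy and the smaller doses were smaller, as Cd79a against 1.0 Gy with -0.72 in place of -1.69.

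The values that changed sign were small. With the 18S covariate Btk and Syk were -0.14 and -0.14 at 0.5 Gy and -0.19 and -0.098 at 1.0 Gy. For 1.0 against 0.5 Gy that fit gave Cd79b -0.085, Blnk -0.084, Btk -0.059 and Bank1 -0.23, and, relative to the 9 B cell genes at 1.0 Gy, Cd22 0.11 and Blnk -0.30. Repeated quantile normalization called 2 genes at 1.0 Gy and gave Syk 0.021 at 3.0 Gy, Btk -0.080 and Bank1 -0.094 for 1.0 against 0.5 Gy, and on the relative scale Cd22 -0.0079 at 0.5 Gy and Blnk -0.029 at 1.0 Gy. On that scale the filter at the 75th percentile gave Blnk 0.031 and Bank1 0.043 at 0.5 Gy, and the mean of all probe sets gave Cd79a -0.57 at 3.0 Gy, now called (limma adjusted p = 0.0171), Cd22 -0.025 at 0.5 Gy and Blk -0.20 at 3.0 Gy. Probe set 1425797_a_at of Syk, also chosen after seeing the data, gave 0.13 at 3.0 Gy.

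Leaving out single arrays moved the difference between 1.0 and 0.5 Gy between -0.22 and 0.063 for Cd79a, -0.28 and 0.097 for Cd22, -0.21 and 0.083 for Blk, -0.079 and 0.11 for Btk, -0.045 and 0.26 for Syk and -0.14 and 0.22 for Bank1. On the relative scale it moved Cd22 between -0.047 and 0.073, Blnk between -0.072 and 0.0063 and Bank1 between -0.11 and 0.042 at 0.5 Gy, and Blk between -0.046 and 0.11 at 3.0 Gy. The cause of these changes was not tested.

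With the replicate number as a block the counts of genes called were 1 at 0.5 Gy, 1 at 1.0 Gy, 7 at 3.0 Gy, 0, 7 and 8 between the doses and 0, 0 and 6 on the relative scale, as without it, and Cd22 at 0.5 Gy on the relative scale was -0.047. Same-numbered arrays had a median correlation of 0.067, and 7 of 16 arrays correlated best with their own number. Dim probe sets and 4 or 5 mice per group limit what small changes these arrays can show.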

Other observations

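Marker lists of other blood cells were also read at 3.0 Gy, where 29.2% of all genes tested were called lower and 20% higher. Of 7 red cell markers tested 5 fell and 1 rose, with a median change of -2.20. The carbonic anhydrase Car2 changed by -2.41, the anion exchanger Slc4a1 by -2.51 and Trim10 by -2.20, and the list's median was -0.62 at 0.5 Gy and -1.48 at 1.0 Gy. Of 11 monocyte markers 2 rose and 5 fell at 3.0 Gy, with a median of -0.39, F13a1 at 1.69, Fcgr4 at 1.04 and the chemokine receptor Ccr2 at -1.52. F13a1 was also higher at 0.5 Gy (1.53) and 1.0 Gy (1.72), as all 14 platelet markers were, and no other monocyte marker was called higher at these doses. Of 9 natural killer cell markers 0 rose and 2 fell, Klrd1 at -1.44 and Nkg7 at -0.67. Both shares were below those over all genes and the list's median was -0.004. Whether the list as a whole shifted was not tested. Among mature neutrophil markers, the decoy receptor Il1r2 changed by 1.55, Trem1 by 1.18 and Fpr2 by 1.44. Among platelet markers, Pde5a changed by 2.60, Gp5 by 2.22 and Tubb1, the tubulin of platelets, by 2.02. The control mean of Pde5a, 3.68, lay close to the control array medians of 3.47 to 3.54, so the size of its change is uncertain.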
